A study of Mus musculus with 6 samples.

Results

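The 6 genes described here encode the main proteins that bind single actin molecules: the thymosins Tmsb4x and Tmsb10, the profilins Pfn1 and Pfn2, and the cofilins Cfl1 and Cfl2. They were chosen by name from a table of 17794 mouse genes, all 6 had a row, and all 6 passed the filter on low counts. The set was put together with results of this comparison already known, so the control and mutant values below are a description of these genes and not independent evidence for any of them.

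RNA came from the medial ganglionic eminence (MGE), the ventral forebrain region that produces many cortical interneurons, of mouse embryos at E13.5. The 3 control libraries came from Rac1+/+;Rac3+/+ embryos and the 3 double mutant (dmut) libraries from Rac1 fl/fl;Rac3-/- embryos. Embryos of both groups carried the Nkx2.1Tg(Cre) transgene and a R26R-YFP+/- reporter allele. Each library was a pool of MGEs from 3 embryos, and the labels do not describe a sort for YFP. Cre under Nkx2-1 acts in the Nkx2-1 lineage, so other cells of the dissected tissue keep Rac1, whereas Rac3-/- affects every cell. P-values measure the spread between 3 pools a group. Nothing in the labels says how far that spread is technical. In bulk RNA, fewer cells of a type and less RNA per cell cannot be told apart.

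Libraries held 26766556 to 34612095 total gene reads. Rac3, the gene removed in all cells, had 532 to 728 reads in control and was listed at 16, 0 and 0 in dmut, where a listed 0 stands for at most 9 reads. Rac1 had 269 to 274 CPM in control and 221 to 273 in dmut, and a whole-gene count does not isolate the floxed part. CPM are read counts scaled to a common library size, here from total gene reads with TMM factors. Nkx2-1, the transcription factor that defines the MGE, stood at 283 ± 28.4 CPM in control and 273 ± 17.2 in dmut (SD, n = 3). The edgeR quasi-likelihood test at a Benjamini-Hochberg adjusted p of 0.05 called 77 of 15960 genes, 0.482%, of which 26, 0.163%, were higher in dmut.

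Actin filaments grow from a pool of monomers, and these 3 families govern that pool. Beta-thymosins are very small peptides that hold ATP-actin monomers in reserve. Profilins exchange the nucleotide on the monomer and pass it to formins and Ena/VASP proteins at growing ends. Cofilins sever ageing filaments and return ADP-actin to the pool, and are switched off when LIM kinases phosphorylate them. Rac GTPases act upstream through PAK and LIM kinase and through the WAVE complex. In migrating interneurons, these proteins are part of the machinery of the growth cone and leading process.

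The thymosin coding sequences are shown because they bear on which reads can be assigned to which gene. The Tmsb4x and Tmsb10 reading frames had 135 bases each, stop codon included, and differed at 40 of them, an identity of 70.4%. Gm9844 is an annotated gene on chromosome 7 whose coding sequence is nearly that of Tmsb10. It differed from Tmsb10 at 2 positions, C39T and C84T, counted from 1 at the A of the start codon with the Tmsb10 base first. Positions are GRCm38 with GENCODE M21 and exclude the stop codon: chrX:167207504-167208036 (minus strand, introns between) for Tmsb4x, chr6:72957621-72958012 (minus strand, introns between) for Tmsb10 and chr7:24862278-24862409 (plus strand, 1 block) for Gm9844. Capitals in the first sequence mark differences from Tmsb10, in the second differences from Tmsb4x, and in the third differences from Tmsb10.
Tmsb4x: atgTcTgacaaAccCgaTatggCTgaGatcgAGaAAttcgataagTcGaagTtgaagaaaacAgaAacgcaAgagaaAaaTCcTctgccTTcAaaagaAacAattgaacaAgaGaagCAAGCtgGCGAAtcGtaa
Tmsb10: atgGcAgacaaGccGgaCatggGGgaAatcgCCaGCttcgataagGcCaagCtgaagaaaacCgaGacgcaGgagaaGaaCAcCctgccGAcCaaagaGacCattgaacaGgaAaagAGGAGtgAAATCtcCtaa
Gm9844: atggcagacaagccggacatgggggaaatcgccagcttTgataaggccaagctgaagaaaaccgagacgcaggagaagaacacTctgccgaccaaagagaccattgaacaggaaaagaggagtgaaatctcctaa
The Tmsb4x and Tmsb10 capitals are spread over the whole frame, and the longest stretch that their transcripts shared was 10 bases. The Tmsb10 transcript and that of Gm9844 shared a stretch of 198 bases. The paired members of the other families were also distinct, with coding identity of 61.5% for Pfn1 and Pfn2 and 71.5% for Cfl1 and Cfl2, and longest shared stretches of 13 bases in each pair.

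Tmsb4x, the more abundant thymosin in control, was the member with the smallest edgeR adjusted p on total gene reads. It lies on chromosome X at 167207093 to 167209315 and has 1371 bp of annotated exon. Its CPM were 751, 661 and 774 in control replicates 1, 2 and 3, and 1243, 1182 and 1234 in dmut replicates 1, 2 and 3. Every dmut library lay above every control library, and the 3 dmut values lay close together. The level was 728 ± 59.9 CPM in control and 1219 ± 33.0 in dmut (SD, n = 3), a 1.67-fold difference. The log2 fold was 0.74 ± 0.11 (SE), with an edgeR adjusted p of 0.044 over all genes, so Tmsb4x was the 1 member of 6 called. It was among the 0.163% of genes called higher. Leaving out any 1 library other than dmut replicate 2 ended this call, with adjusted p from 0.079 to 0.254 and log2 folds from 0.68 to 0.79. A block for the date in the sample titles also ended it, with an edgeR adjusted p of 0.364.

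Tmsb10, the second thymosin, had the largest fold of the 6 and the widest spread. It lies on chromosome 6 at 72957347 to 72958748, with 1276 bp of annotated exon. Control CPM were 659, 507 and 559, and dmut CPM were 1481, 826 and 1358. The groups did not overlap, but dmut replicate 2 lay much nearer to the control libraries than the other 2 dmut libraries did. The level was 575 ± 77.6 CPM in control and 1221 ± 348 in dmut, a 2.12-fold difference and a log2 fold of 1.09 ± 0.23. The edgeR adjusted p was 0.078. Without dmut replicate 2, the log2 fold was 1.30 with an adjusted p of 0.034.

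The authors' deposited table, which tests the same libraries, listed signed folds of 1.62 for Tmsb4x and 2.06 for Tmsb10, with FDR p-values of 0.000951 and 0.00411. In the authors' deposited table, 144 of 17794 genes, 0.809%, were higher at an FDR p under 0.05, and Tmsb4x and Tmsb10 were the members among them. The same deposited table gave Pfn1 1.30, Pfn2 1.33, Cfl1 1.25 and Cfl2 1.13, with FDR p-values of 0.663 for Pfn2 and 1 for the other 3.

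Pfn1, the widely expressed profilin, was the member whose groups overlapped. It lies on chromosome 11 at 70651850 to 70654644. Control CPM were 185, 144 and 143 and dmut CPM 203, 162 and 259, so dmut replicate 2 lay below control replicate 1. Means were 157 ± 23.7 and 208 ± 48.5, and the log2 fold was 0.40 ± 0.19 with an edgeR adjusted p of 0.27.

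Pfn2, the profilin enriched in the nervous system, was tighter. It lies on chromosome 3 at 57841895 to 57848079. Control CPM were 297, 306 and 316 and dmut CPM 400, 449 and 402. The groups were well apart relative to their spread, at 306 ± 9.34 in control and 417 ± 27.5 in dmut. The log2 fold was 0.45 ± 0.10, a 1.36-fold difference, with an edgeR adjusted p of 0.081.

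Cfl1, the non-muscle cofilin, was the most abundant member in control. It lies on chromosome 19 at 5490455 to 5495201. Control CPM were 1049, 908 and 865 and dmut CPM 1138, 1090 and 1350. The gap between the highest control and the lowest dmut library was small beside the spread within each group. Means were 941 ± 95.9 and 1193 ± 138, with a log2 fold of 0.34 ± 0.13 and an edgeR adjusted p of 0.195. Cfl2, best known as the muscle cofilin, lies on chromosome 12 at 54858809 to 54862877. It had 125, 124 and 112 CPM in control and 133, 151 and 138 in dmut, a log2 fold of 0.22 ± 0.09 with an edgeR adjusted p of 0.224.

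**Figure D1:**
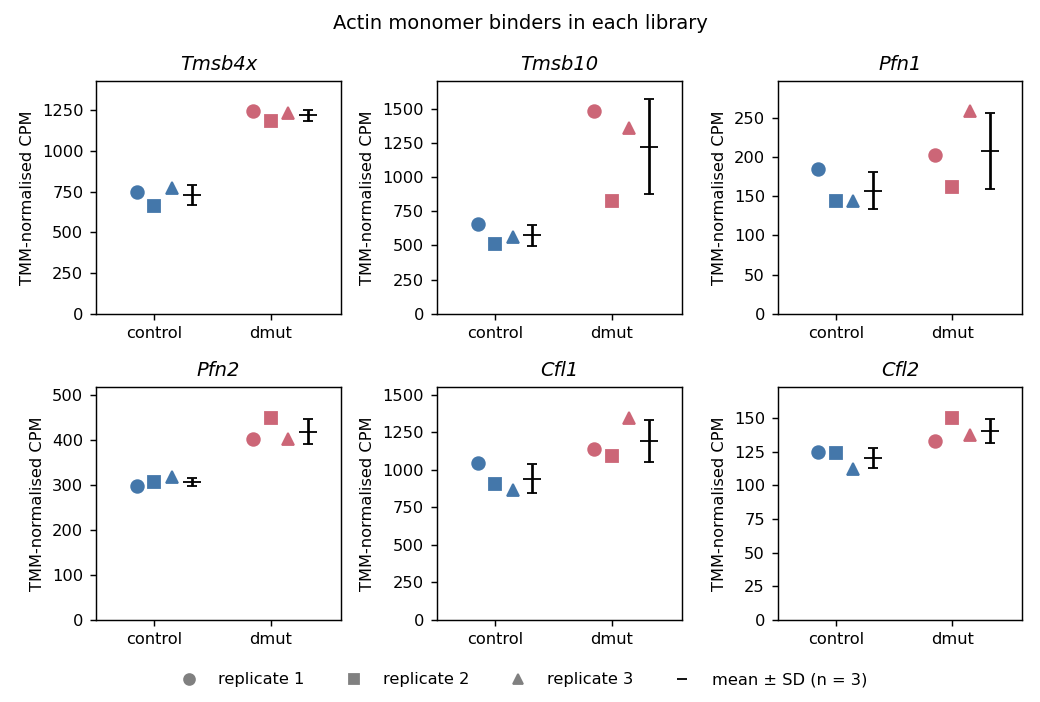
TMM-normalised CPM (vertical axes, from 0) of the 6 genes in each control and dmut library; marker shapes give the replicate number and black bars the mean ± SD of 3 libraries. Dmut libraries lie above all control libraries in 5 genes, while in Pfn1 dmut replicate 2, at 162, lies below control replicate 1, at 185.

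Of the 6 members, 5 had higher dmut values with no overlap between groups, while 13.6% of all 15960 genes tested did so. The members' median log2 fold was 0.42, beside -0.02 over all genes tested. Together the 6 genes took 2650 to 3065 CPM in control and 3858 to 4740 in dmut. The dates in the sample titles were not balanced between groups: 1 date held only control replicate 1. On 29/3, which held control replicate 2 and dmut replicates 1 and 2, all 6 genes were higher in both dmut libraries, with log2 ratios of means from 0.19 to 1.19. On 4/5, which held control replicate 3 and dmut replicate 3, all 6 were also higher in dmut, from 0.30 to 1.28. With 1 control library per date, neither date had a test of its own. The share of all genes higher in dmut on each date was not computed, so these counts have no background beside them. With the date as a block over all 6 libraries, edgeR called no gene, with 12.7% at an unadjusted p under 0.05, and Tmsb4x had a log2 fold of 0.79 ± 0.14.

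Reads that match only 1 place gave the same picture for 5 of the genes, because nearly all their reads were unique: 99.8% to 100% in Tmsb4x, Pfn1, Pfn2 and Cfl2, and 96.0% to 98.0% in Cfl1. In Tmsb10 only 36.7%, 34.3% and 42.2% of control reads and 39.6%, 34.6% and 44.2% of dmut reads were unique. Thus 55.8% to 65.7% of the reads counted for Tmsb10 also matched elsewhere, and its levels are uncertain for that reason. In the GENCODE M21 transcripts, 27.0% of the 50-base words of Tmsb10 also occurred in another gene, most of them in Gm9844, and 11.1% of its 100-base words did. Gm9844 itself was not analysed here. Cfl1 shared 18.3% of its 50-base words, chiefly with transcripts of its neighbour Snx32 and with Gm6180, and Tmsb4x, Pfn1 and Pfn2 shared none.

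Tmsb10 was higher in dmut in both classes of read. Its unique reads, scaled to the unique reads of each library, stood at 284, 203 and 275 CPM in control and 696, 338 and 703 in dmut. Their log2 fold was 1.19 ± 0.28, with an edgeR adjusted p of 0.075. The reads that also matched elsewhere averaged 358 ± 51.9 CPM in control and 730 ± 179 in dmut, a ratio of 2.04. In both classes dmut replicate 2 was the lowest dmut library. On unique reads Tmsb4x had a log2 fold of 0.76 ± 0.11 and an edgeR adjusted p of 0.038, as 1 of the 0.209% of genes called higher on that measure.

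**Figure D2:**
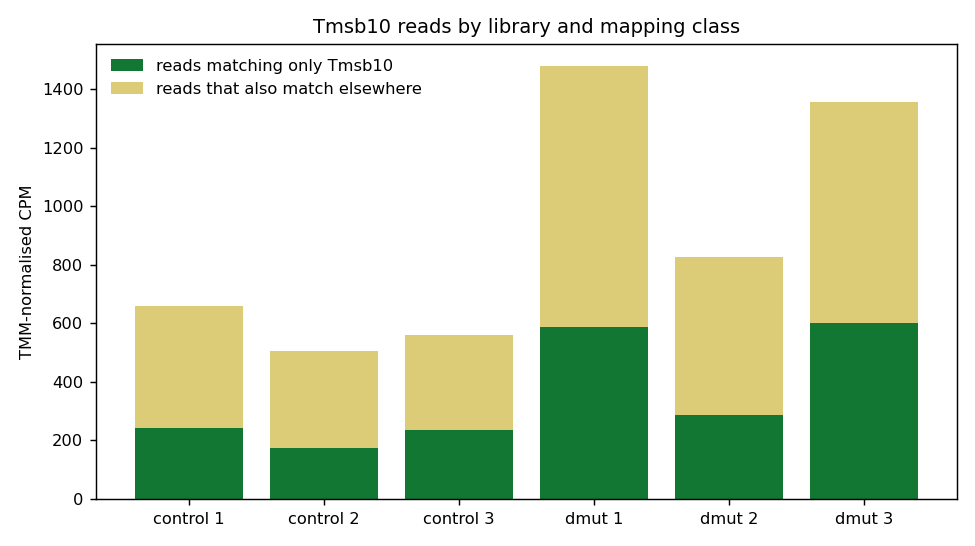
Tmsb10 CPM (vertical axis, TMM-normalised, from 0) in each library, split into reads that match only Tmsb10 (green) and reads that also match elsewhere (yellow). Both parts are taller in the dmut bars, and the unique part is 34.3% to 44.2% of each bar.

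Per length of transcript, the order of the members was stable in control. In RPKM, reads per kilobase scaled to the size of the library, the control means were 808 ± 89.2 for Cfl1, 567 ± 42.0 for Tmsb4x, 482 ± 67.9 for Tmsb10, 160 ± 26.1 for Pfn1, 107 ± 2.04 for Pfn2 and 43.4 ± 3.32 for Cfl2. All 3 control libraries had this order. Of the neighbours in it, Tmsb4x and Tmsb10 overlapped in range across libraries, with 519 to 593 for Tmsb4x and 427 to 558 for Tmsb10. In dmut replicates 1 and 3, Tmsb10 passed Tmsb4x, at 1051 against 821 and at 1036 against 876. In dmut replicate 2 it did not, at 584 against 777. The Tmsb10 to Tmsb4x ratio of RPKM was 0.85 ± 0.09 in control and 1.07 ± 0.28 in dmut, a difference smaller than the spread in dmut. The Pfn2 to Pfn1 ratio was 0.68 ± 0.11 and 0.72 ± 0.21, and the Cfl2 to Cfl1 ratio 0.054 ± 0.0037 and 0.049 ± 0.0074. Neither of these differences exceeded the SD in dmut, though that of Cfl2 to Cfl1 exceeded the SD in control.

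These orders depend on the gene length used. Total reads divided by the deposited RPKM implied 1280 to 1285 bp for Tmsb10 and 1376 to 1382 for Tmsb4x, close to their annotated exon lengths of 1276 and 1371 bp. For Pfn1 the same division gave 1038 to 1061 bp beside 2405 annotated, and for Cfl1 1224 to 1254 beside 2844. Pfn2 gave 3040 to 3078 bp beside 3541, and Cfl2 2971 to 2991 beside 3266. In Pfn1, Pfn2 and Cfl1 every dmut library gave a lower value than every control library, so these quotients are only approximate gene lengths. With annotated lengths, the Pfn2 to Pfn1 ratio became 1.34 ± 0.22 in control, so the order of the profilins turned, and the Cfl2 to Cfl1 ratio became 0.112 ± 0.0078. With unique reads only, the Tmsb10 to Tmsb4x ratio fell to 0.32 ± 0.03 in control and 0.43 ± 0.15 in dmut. The union of exons is longer than any single thymosin transcript, of which the longest had 690 bases for Tmsb10 and 864 for Tmsb4x.

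The thymosins are short genes, and short genes as a class had higher folds. Among the listed genes whose name matched 1 annotated gene, only 11.1% had less exon than Tmsb4x, and Tmsb10 was shorter still. Among 486 genes with 1000 to 1500 bp of exon and a mean of at least 50 reads, the median log2 fold was 0.35, and among 106 genes below 500 bp it was 0.83. Among 1311 genes of 10000 bp or more it was -0.15. Across 12360 genes, fold and exon length had a Spearman correlation of -0.36, a description over genes that share the same 6 libraries. The trend differed between libraries of 1 group: genes of 1000 to 1500 bp deviated by a median of 0.33 in dmut replicate 1, 0.02 in dmut replicate 2 and 0.21 in dmut replicate 3, on the log2 scale. The corresponding control values were -0.07, -0.31 and -0.13.

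Every member lay above the median of its own class of annotated exon length. Tmsb10 was above it by 0.74 and Tmsb4x by 0.39 on the log2 scale, higher than 94.4% and 84.0% of the 486 genes in the class. Pfn2 was above its class by 0.42 and higher than 94.5% of 3451 genes of 3000 to 5000 bp. Pfn1 was above by 0.28, Cfl1 by 0.22 and Cfl2 by 0.19. For Pfn1 and Cfl1 the result depends on the length used. Their lengths implied by RPKM would place both among genes of 1000 to 1500 bp. The median of that class was 0.35, beside log2 folds of 0.40 for Pfn1 and 0.34 for Cfl1.

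**Figure D3:**
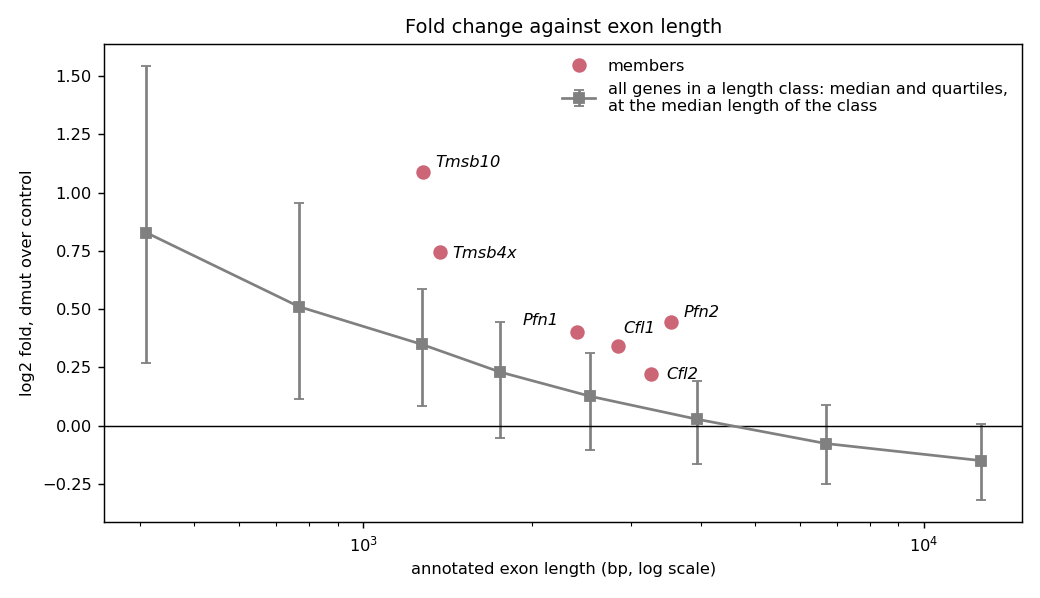
Log2 fold of dmut over control (vertical axis) against annotated exon length in bp (log scale) for the 6 members (red) and for all genes in 8 length classes (grey squares, median with quartiles, placed at the median length of the class). Class medians fall from 0.83 in the shortest to -0.15 in the longest, and every member lies above the median of its class of annotated length.

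When the trend of each library on annotated exon length and on GC content was taken out, edgeR called 17 genes, 0.107%, higher. No member was among them, and 3 of 6 members had an unadjusted p under 0.05, beside 19.3% of all genes tested. Tmsb4x then stood at 768, 756 and 818 CPM in control and 1051, 1202 and 1153 in dmut, with no overlap. Its log2 fold was 0.54 ± 0.10 with an edgeR adjusted p of 0.076. Tmsb10 had a log2 fold of 0.80 ± 0.16 with an adjusted p of 0.081 in the same edgeR fit, and dmut replicate 2, at 838 CPM, still lay nearest to control. Pfn2 had 0.39 ± 0.10. Pfn1, Cfl1 and Cfl2 had 0.24 ± 0.15, 0.25 ± 0.12 and 0.21 ± 0.11.

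Scaling changed the size of every difference. On RPKM, which divides by all gene reads of a library, log2(RPKM + 1) folds were 0.54 for Tmsb4x, 0.84 for Tmsb10, 0.25 for Pfn2, 0.20 for Pfn1, 0.16 for Cfl1 and 0.02 for Cfl2. The limma test called 9 genes, 0.0506%, higher and no member, while 3 members had an unadjusted p under 0.05, beside 22.0% of all genes. The limma adjusted p was 0.146 for Tmsb4x and 0.169 for Tmsb10. Tmsb4x, Tmsb10 and Pfn2 were the 3 members without overlap on RPKM, beside 4.39% of all genes. Library size alone in edgeR shifted the median log2 fold of all genes by -0.20 relative to TMM, and the members shifted with it by about the same amount, to between 0.02 and 0.89.

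On the authors' quantile-normalised RPKM, in which every library has the same set of values, most of the difference was not seen. Tmsb4x stood at 639, 650 and 749 in control and 547, 824 and 778 in dmut, where dmut replicate 1 was the lowest of all 6 libraries. By rank of RPKM, Tmsb4x was gene 53, 52 and 44 in control and 62, 40 and 42 in dmut. An RPKM of 500 was exceeded by 60, 54 and 59 genes in control and by 86, 59 and 69 in dmut replicates 1, 2 and 3. Tmsb10 stood at 605, 533 and 533 in control and 765, 639 and 962 in dmut, and was the 1 member without overlap on this scale, beside 10.4% of all genes. Log2 folds were 0.48 ± 0.19 for Tmsb10, 0.06 ± 0.20 for Tmsb4x and 0.08 ± 0.10 for Pfn2. They were below 0 for Pfn1, Cfl1 and Cfl2, at -0.04, -0.17 and -0.04. The limma test called 9 genes, 0.0506%, higher on this scale and no member, with 1 of 6 members at an unadjusted p under 0.05, beside 15.6% of all genes.

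**Figure D4:**
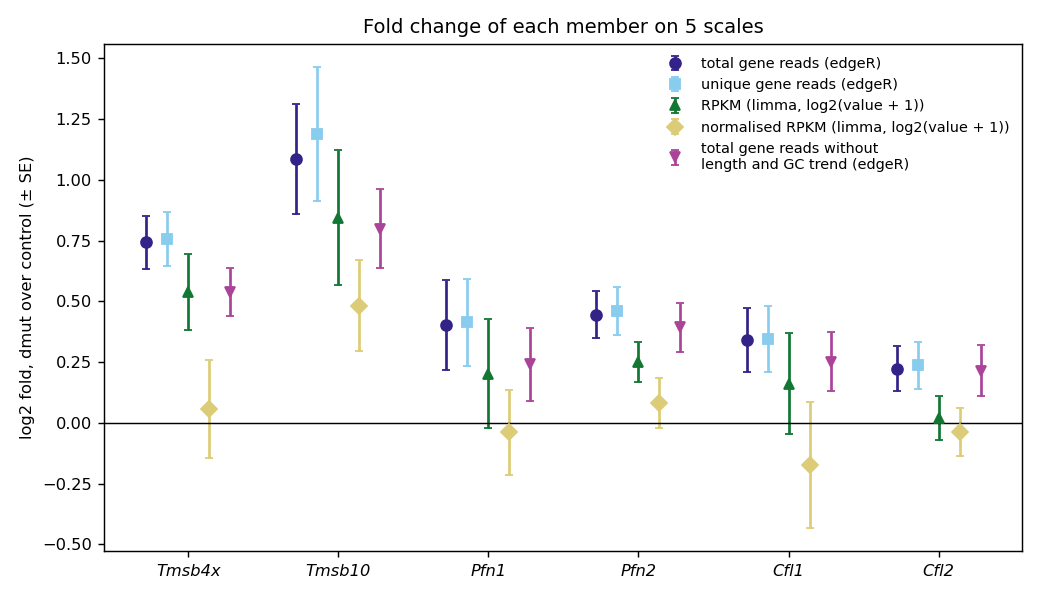
Log2 fold of dmut over control with its SE (vertical axis) for each of the 6 genes on 5 scales: total gene reads, unique gene reads, RPKM, quantile-normalised RPKM, and total gene reads without the length and GC trend. Tmsb10 lies above 0 on all 5, from 0.48 to 1.19, while Pfn1, Cfl1 and Cfl2 lie below 0 on quantile-normalised RPKM.

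Most genes that work with these 6 gave small differences in both directions. Of 74 other actin genes listed, 65 were tested, and edgeR called none, with 13 at an unadjusted p under 0.05, 7 of them higher, near the 21.3% of all genes at that p. DESeq2 called 7 of them, where it called 1783 of 17794 genes in all, and limma-voom none. The median log2 fold of the 65 was 0.01, beside -0.02 for all genes tested.

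The RNA of the cytoplasmic actins differed by less than the spread between libraries. Actb, the cytoplasmic beta-actin, had 1632 ± 300 CPM in control and 1514 ± 366 in dmut, with a log2 fold of -0.11 ± 0.21 and an edgeR adjusted p of 0.82. Actg1, the cytoplasmic gamma-actin, had 2718 ± 188 and 2767 ± 310, with a log2 fold of 0.03 ± 0.13. Both groups overlapped in both genes. Acta2, the smooth-muscle actin, was low, at 2.13 ± 0.36 CPM in control and 0.91 ± 0.0057 in dmut, and its groups did not overlap. For genes lower without overlap, the share of all genes was not computed.

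Among 10 tested genes listed as other monomer binders, their relatives or cofactors, the median log2 fold was 0.18. Tmsb15b2, another beta-thymosin, was at 6.36 ± 0.43 CPM in control and 10.3 ± 2.08 in dmut, with a log2 fold of 0.70 ± 0.18 and an edgeR adjusted p of 0.097. Cap2, a cyclase-associated protein that recharges monomers, had 0.39 ± 0.11. Dstn, the cofilin relative destrin, had 0.18 ± 0.10 with overlapping groups, and Twf1, the monomer-binding twinfilin, had -0.08 ± 0.11.

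The 8 kinases and phosphatases that switch cofilin had a median of -0.01. Limk2, a cofilin kinase, had a log2 fold of -0.27 ± 0.09 and Limk1 0.16 ± 0.09, and neither was called. Of the slingshot phosphatases that reactivate cofilin, Ssh2 had 0.22 ± 0.09, Ssh1 -0.26 ± 0.13 and Ssh3 -0.49 ± 0.56. These are RNA levels, and cofilin phosphorylation was not measured.

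The 13 tested profilin-actin users, formins and Ena/VASP proteins, had a median of -0.08. Evl, an Ena/VASP protein, had 0.45 ± 0.13, with 297 ± 36.9 CPM in control and 405 ± 42.8 in dmut. Fhod1, a formin, had -0.87 ± 0.25. WASP family and WH2 genes had a median of -0.09 over 11, and severing and capping genes 0.20 over 12, with Capzb, the capping protein beta subunit, at 0.47 ± 0.14. Of these 12, 5 were higher in dmut without overlap and 0 lower, beside 13.6% of all genes tested higher. Over all 65 tested actin genes, 11 were higher without overlap, near that share, and 7 were lower. No share of all genes lower without overlap was computed to set beside these counts.

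Genes of the transcription route that reads the monomer pool were also measured. Mkl1, the coactivator held in the cytoplasm by G-actin, had a log2 fold of 0.05 ± 0.12 and Srf, its DNA-binding partner, 0.01 ± 0.14. Mkl2, the paralog of Mkl1, had -0.33 ± 0.11 and Phactr2, a G-actin-binding phosphatase regulator, -0.40 ± 0.15, both with lower dmut values that did not overlap control, and neither was called. How many of all genes were lower without overlap was not computed. The 7 tested genes of that list had a median of 0.01. None of the promoter windows of the 6 members, 300 bases around the annotated start in RefSeq on GRCm38.p6, held a CArG box, the SRF site, on either strand. The motif occurred in 1.63% of 32851 windows, among them that of Actg1, and the absence says only that these letters are not in these windows.

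Genes most like each member over the 6 libraries were picked by Pearson correlation of log2 CPM among 10224 others with at least 200 reads on average. They were Nhp2l1, Chmp4b and Zfp341 for Tmsb4x (r of 0.997 to 0.998), Mrpl11, R3hcc1 and Hnrnpd for Tmsb10 (0.996 to 0.998) and Tubg2, Gmnn and Nosip for Pfn1 (0.989 to 0.991). They were Ubqln1, Slco2b1 and Calr for Pfn2 (0.993 to 0.998), Ptdss2, Snrpa and Coq5 for Cfl1 (0.988 to 0.993) and Kpna6, Wdr34 and Ehd2 for Cfl2 (0.983 to 0.988). With 6 points and so many candidates, these values are a description. Among the members, Pfn1 and Cfl1 were the most alike, with r = 0.948 over 6 libraries, and Pfn1 and Cfl2 the least, with 0.444.

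Markers of 8 cell types were listed to set beside the members. EdgeR called none of the 77 tested, with 17 at an unadjusted p under 0.05, again near the share of all genes. DESeq2 called 11 of the markers, where it called 1783 of 17794 genes in all. Limma-voom called 1, where it called 127 of 15960. Tmsb4x is abundant in microglia, and 11 of 13 microglial markers had positive folds, with a median of 0.40, beside 47.3% positive among all genes tested. Their summed level was 96.6 to 117 CPM in control and 116 to 152 in dmut. C1qa, C1qc and Tyrobp were higher in dmut without overlap (log2 folds of 1.07, 0.83 and 0.96), 3 of 13 beside 13.6% of all genes tested. Mrc1 was lower without overlap (-0.61), and the other 9, Cx3cr1, Csf1r and P2ry12 among them, overlapped. The share of all genes lower without overlap was not computed. None of the 13 was at 0 in any library. Tmsb10 is known in developing neurons, and 9 pan-neuronal markers summed to 3170 to 3821 CPM in control and 4082 to 4465 in dmut, without overlap. Of the 9, 6 had positive folds, beside 47.3% of all genes tested. Tubb3, a neuronal tubulin, had 642 to 940 CPM in control and 1162 to 1624 in dmut. Elavl4 (log2 fold of 0.27) and Rbfox3 (0.42) were also higher without overlap. Thus 3 of 9 were higher without overlap, beside 13.6% of all genes tested. Snap25 was lower without overlap (-0.53), and Dcx (-0.07) and Map2 (-0.02) overlapped. Without Tubb3, a sum taken after these values were seen, the other 8 summed to 2528 to 2881 CPM in control and 2620 to 3028 in dmut, which overlap. All 7 mesenchymal markers had negative folds, with summed levels of 46.2 to 68.6 and 32.7 to 44.0 CPM and Lum at 0 in at least 1 library. Cortical excitatory markers summed to 30.8 to 64.5 CPM in control and 16.4 to 114 in dmut. Their median log2 deviations were -0.40, 0.04 and 0.50 in control and -2.32, 1.52 and -1.44 in dmut replicates 1, 2 and 3. Erythroid markers summed to 11815 to 20450.5 CPM in control and 9768 to 35556 in dmut. Their medians were 0.10, -0.43 and 0.25 in control and 0.70, -0.95 and -0.85 in dmut. Endothelial, MGE and progenitor sums overlapped between groups. The part of these cells or pool differences in the members' values was not tested.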

How the data were processed

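Per the labels' protocols, RNA was purified on columns, mRNA was isolated on beads and barcoded Ion Torrent libraries were made. The submitters' processing notes name GRCm38 (mm10); for the aligner and counter, a name was not given in the sources used here. The authors deposited total and unique gene reads as whole-number counts, RPKM, quantile-normalised RPKM, and, for their own test, a p-value, an FDR p-value and a signed fold given as a score. No total count lay between 1 and 9.

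The test was edgeR 4.0.16 (R 4.3.3; TMM factors, filterByExpr, quasi-likelihood) on total gene reads of 3 against 3 libraries, fitted over all genes, two-sided. RPKM and normalised RPKM were tested with limma 3.58.1 on log2(value + 1), and limma-voom and DESeq2 1.42.0 on counts were alternatives. Exon length and GC came from GENCODE M21, where 93.3% of names matched 1 gene. Their trend per library was fitted on genes with a mean of at least 50 reads. Genes named as ribosomal proteins, respiratory chain or ATP synthase subunits, or histones were left out of that fit. The length classes kept them. The steps were tested on simulated data. Depth was 26766556 to 34612095 reads. Named genes were the 6 members, called genes of the actin list, Actb, Actg1 and the 3 genes most like each member. Rac1, Rac3, Nkx2-1 and other list genes given as values were chosen after their values were seen. The members and lists were chosen with earlier results of these data known. The fit on quantile-normalised RPKM was added after seeing the data.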

Additional observations from a re-analysis of the deposited data

How the results depend on the processing

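The direction of each member's fold was positive under all 19 alternatives for Tmsb4x, Tmsb10 and Pfn2. It turned only on quantile-normalised RPKM, an alternative chosen after seeing the data, for Pfn1 (-0.0392), Cfl1 (-0.173) and Cfl2 (-0.0385). The call of Tmsb4x was lost on log2(RPKM + 1) (0.54), on normalised RPKM (0.0581), with the label date as a block (0.79) and without the length and GC trend (0.54); without 1 library its log2 fold ranged from 0.68 to 0.79. Tmsb10 was called by DESeq2 (1.09), with the replicate block (1.05) and without dmut replicate 2 (1.30), its folds without 1 library ranging from 0.92 to 1.30. DESeq2 also called Pfn2 (0.45) and Cfl1 (0.35). Members called numbered 1 in the main test, 4 with DESeq2, 2 with the replicate block, 3 at an adjusted p of 0.1, 0 on RPKM, on normalised RPKM, with the date block and without the trend, and 0 to 2 without 1 library. Over all genes and in both directions, the main test called 77 of 15960, or 0.482%. That count became 1783 of 17794 with DESeq2, 227 of 15960 with the replicate block and 1065 of 15960 at an adjusted p of 0.1. It was 780 of 15960 with library size alone, 135 of 13176 among genes averaging 50 reads or more and 127 of 15960 with limma-voom. It was 22 of 17794 on RPKM, 19 of 17794 on normalised RPKM and 64 of 15960 without the trend. With the date block it was 0 of 15960 (2033 at an unadjusted p under 0.05). Without 1 library it was 2 to 585, with 16293 to 16546 genes tested. Of calls, 33.8% were higher in the main test, 6.67% with library size alone, 56.2% with DESeq2 and 26.6% without the trend. In the other actin genes, 0 calls became 1 with library size alone, 7 with DESeq2, 1 at an adjusted p of 0.1 and 0 to 1 without 1 library. The causes were not tested. Same-numbered libraries deviated together with correlations of 0.110, 0.123 and 0.015, not all above 0.1. Numbers 2 and 3 share a title date across groups and number 1 does not, so the numbers were not taken as pairs. Each group had 3 pools, which limits the precision.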
